A study of Mus musculus with 63 samples.

Results

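The comparison described here was that of adult brains heterozygous for a deletion at the lncRNA locus Chaserr (Chaserr+/-) with WT adult brains. It took the 6 brain RNA-seq libraries, 3 of each genotype, of the 63 samples in the series, chosen by their titles. The study asked how Chaserr, a conserved lncRNA transcribed just upstream of and on the same strand as Chd2, bears on Chd2 levels and on mouse development. Poly(A) RNA was sequenced from tissue labelled adult brain. Neither a brain region, nor an age in weeks, nor the sex of a mouse was given by the labels. The paper gives a range of weeks and of generations for the mice of all its experiments, not the age of each brain. It also reports growth retardation and postnatal loss of Chaserr+/- mice. Mutant mice carried 1 Chaserr allele without its promoter and first exon in all their cells, made with Cas9 and 4 guide RNAs injected on CB6F1 Ola HSD, and the line was then backcrossed to C57BL/6 Ola HSD. The deletion came from 2 founder lines, and which line a brain came from was not given in the sources used here. The WT brains carried no engineered allele. Replicates 1 and 2 of both genotypes were prepared with the Lexogen SENSE kit and replicate 3 of both with the TruSeq stranded kit, so the third pair of brains and the second kit cannot be told apart. No label says that the replicates were separate animals, litters or days, and p values then measure only the spread between these libraries. Counts of sex-linked genes, given below, differed among the 3 WT libraries and between Chaserr+/- 1 and 2. These were therefore not repeats of 1 animal. How far the rest of the spread was technical was not tested.

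CHD2 is a chromodomain helicase, an ATP-dependent enzyme that moves nucleosomes at active genes, and loss of 1 copy in humans causes epilepsy with developmental delay. The adult brain mixes neurons, which signal through synapses, with glia and vessels. Oligodendrocytes wrap axons in myelin, astrocytes take up transmitter and potassium, and microglia are the resident macrophages.

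The sequences at the deleted start of Chaserr are shown first, because they mark where Cas9 was directed to cut. The ends of the deletion in a given brain were not given in the sources used here. The Chd2 gene occupies chr7:80571577-80686632 on the minus strand (mm9, GENCODE vM1). The RefSeq start of Chaserr was found at position 80703281 on the same strand, 16649 bases upstream of the Chd2 start. Each guide is given 5′ to 3′ with the PAM that follows it in the genome in capitals.
guide 1: cggtccgagccagcggggagAGG
guide 2: gaggtgggaacccatctttgGGG
guide 3: agtgaaactctgggtttgcgGGG
guide 4: tgctgagaacatggaagcggTGG
Guide 1 matched chr7:80702699-80702718 on the minus strand, 573 bases downstream of the start. Guide 2 matched chr7:80702568-80702587 on the minus strand, 704 bases downstream. Guide 3 matched chr7:80703696-80703715 on the plus strand, 424 bases upstream, and guide 4 matched chr7:80703600-80703619 on the minus strand, 328 bases upstream (all mm9). The 300 bases around the start, 250 before and 50 after it, lie between the upstream and the downstream guides and hold none of the guide matches. They are given from RefSeq (GRCm38.p6, chr7:73558346-73558645, minus strand), with the transcribed bases in capitals.
Chaserr start: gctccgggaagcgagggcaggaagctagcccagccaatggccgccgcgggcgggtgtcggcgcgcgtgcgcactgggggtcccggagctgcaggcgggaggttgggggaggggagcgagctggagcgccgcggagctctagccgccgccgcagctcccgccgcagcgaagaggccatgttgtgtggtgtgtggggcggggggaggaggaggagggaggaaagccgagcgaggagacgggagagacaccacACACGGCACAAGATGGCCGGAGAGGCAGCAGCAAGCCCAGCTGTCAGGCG
The window has a GC content of 72.3%.

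All 18 pan-neuronal marker genes were detected in the brain libraries, with a summed level of 8888 to 9553 TPM (transcript abundance scaled to a fixed total per library). The libraries held between 13956040 and 33192002 counts, and 2 features set some of them apart. The 45S ribosomal RNA row Rn45s took 7% to 10.2% of the counts in the 4 SENSE libraries and 0.107% and 0.133% in the TruSeq libraries. Counts from Xist, the RNA of the inactive X chromosome, were 22521 in WT 1, 22731 in Chaserr+/- 1 and 16868 in Chaserr+/- 3, and at most 9 in the other libraries. Each of 4 Y-linked genes (Kdm5d, Uty, Ddx3y and Eif2s3y) had between 101 and 352 counts in WT 2 and Chaserr+/- 2 and 0 counts in the other 4 libraries, WT 3 included. The replicate 1 and 2 pairs were therefore alike in these genes and the replicate 3 pair was not, and WT 3, with 9 counts of Xist and none of the 4 Y-linked genes, matched neither pattern. These genes were chosen after their values were seen. Below, values are therefore given by pair, and the main counts also without replicate 3.

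Chaserr, the gene deleted on 1 allele, was lower in each of the 3 pairs, which checks the genotype labels. Chd2 was higher in each pair. Values are CPM, counts scaled to a common library size by TMM, given in the order of replicates 1, 2 and 3, and a pair is the WT and the Chaserr+/- library with the same number. Chaserr had 10.6, 12.03 and 11.2 CPM in WT and 5.48, 8.396 and 4.34 CPM in Chaserr+/- brains. The 3 Chaserr+/- values were all below the lowest WT value. The mean was 11.3 ± 0.710 CPM (SD, n = 3) in WT and 6.07 ± 2.09 CPM (SD, n = 3) in Chaserr+/-. The fitted log2 fold change, Chaserr+/- over WT with the pairs as a block, was -0.95 ± 0.210 (SE, adjusted p = 0.315), and the log2 ratios of the pairs were -0.94, -0.51 and -1.35.

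Chd2 had 34.2, 35.2 and 46.5 CPM in WT and 58.2, 64.98 and 105 CPM in Chaserr+/- brains. All Chaserr+/- libraries lay above all WT libraries, and the TruSeq library of each genotype was the highest of its group. The group means were 38.7 ± 6.86 and 76.2 ± 25.6 CPM (SD, n = 3 each). The log2 fold change was 0.95 ± 0.125 (SE, adjusted p = 0.315), with pair ratios of 0.77, 0.88 and 1.18. Neither gene passed the adjustment over all genes in the edgeR fit (adjusted p = 0.315 for both). Without replicate 1, 2 or 3 of both genotypes the edgeR log2 fold change of Chd2 was 1.03, 0.98 and 0.83, with adjusted p of 0.0405, 0.670 and 0.0513, so that the first of these passed. DESeq2 with the same block gave an adjusted p of 1.37e-05 for Chd2 and 0.0872 for Chaserr. Without the block neither gene passed. Chd2 then had a log2 fold change of 0.99 in DESeq2 (adjusted p = 0.850) and 0.98 in edgeR (adjusted p = 0.9997).

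**Figure D1:**
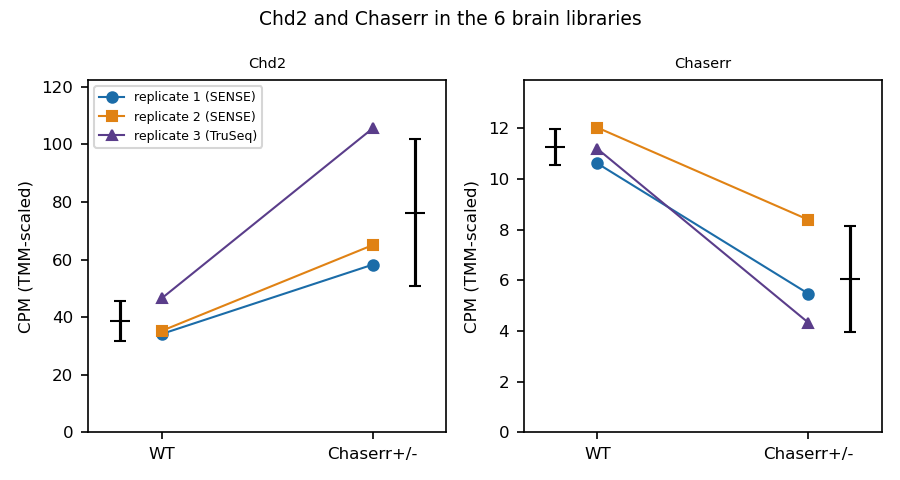
Each panel plots the TMM-scaled CPM of 1 gene (y axis, from 0) in the 6 brain libraries, with lines joining the WT and Chaserr+/- library of a replicate number and bars giving the mean and 1 SD on each side of the 3 libraries. In all 3 pairs the line climbs for Chd2, from 34.2 to 46.5 CPM in WT to 58.2 to 105 CPM, and descends for Chaserr.

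Of 24990 rows, 14911 passed the filter on low counts and were tested. None was called at an adjusted p under 0.05 in either direction (percent called 0%), and the smallest adjusted p was 0.262 (edgeR quasi-likelihood test). At an unadjusted p under 0.05, 909 genes were higher (6.1%) and 1045 lower (7.01%) in Chaserr+/- brains. In all 3 pairs 2931 genes were higher (19.7%) and 2892 lower (19.4%), and the 3 libraries of 1 genotype lay above all 3 of the other for 613 genes higher (4.11%) and 762 lower (5.11%) in Chaserr+/-. DESeq2 with the block called 44 genes higher (0.385%) and 55 lower (0.481%) of the 11442 to which it gave an adjusted p. Without replicate 1, 2 or 3 of both genotypes edgeR called 48, 0 and 22 genes. Without the block, edgeR called 0 genes, with 368 at an unadjusted p under 0.05, and DESeq2 called 1, a row of Zfp966 transcripts. These percentages over all tested genes are the background for the gene lists that follow, and the median log2 fold change of all tested genes was -0.0018. No gene below passed the edgeR adjustment, so each value is a description, given with its standard error and, for the genes shown by library, its adjusted p. A correction for GC content and length, added to the blocked fit after the data were seen, is given beside the genes under that unadjusted p that it moves by over 1.5 times or takes above it, and beside some lists.

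The glial programme had a lower median than the neuronal and vascular programmes. In bulk tissue, fewer cells of a type and less RNA per cell cannot be told apart. It gathered 5 lists with 103 tested genes, of which 41 were lower (7.01% of all genes) and 2 higher (6.1%) at an unadjusted p under 0.05, and 49 were lower (19.4%) and 5 higher (19.7%) in all 3 pairs. The median log2 fold change was -0.35, and -0.050, -0.46 and -0.35 in pairs 1, 2 and 3. Among 216 neuronal genes 17 were higher and 19 lower at that p, with a median of 0.0059. This programme joined the pan-neuronal, synaptic, transmitter, GABA and glycine receptor, ion channel, neuropeptide, activity and neurogenesis lists. The lists of brain regions were not in it. Among 84 vascular genes 9 were higher and 9 lower, with a median of -0.030. Some lists outside these programmes had medians below the glial one. They were -1.15 for the 3 tested pituitary genes, -0.66 for choroid plexus, -0.62 for ependymal and -0.54 for thalamus and hypothalamus genes. Without replicate 3 these medians were -0.45, -0.33, -0.60 and -0.23, against -0.30 for the glial programme. Striatal and cortical genes were above 0, at 0.22 and 0.14. Left out one at a time, pairs 1, 2 and 3 gave glial medians of -0.46, -0.22 and -0.30. Without replicate 3, which leaves the SENSE libraries, 41 of 103 glial genes were again lower (6.68% of all genes) and 4 higher (6.21%). Without replicate 2, 17 of 104 were lower (3.62% of all genes), and without the block 12 of 103 were lower (1.46%) and 0 higher (1.01%).

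**Figure D2:**
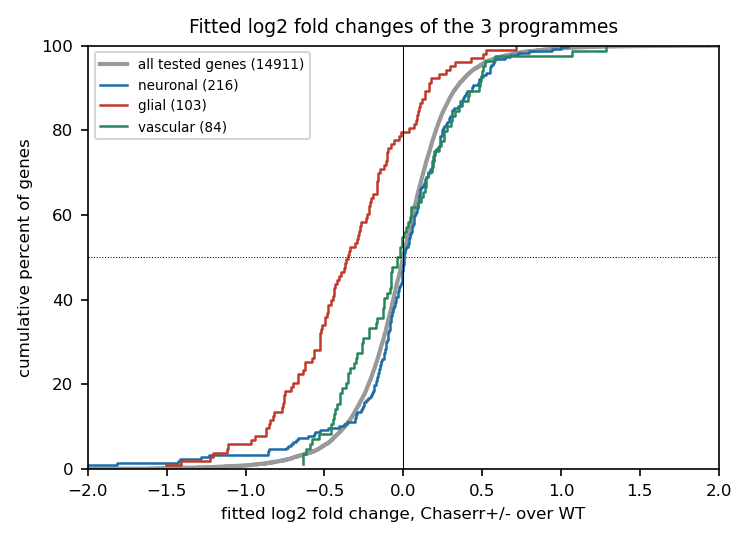
Cumulative percent of genes (y axis) with a fitted log2 fold change, Chaserr+/- over WT, up to the value on the x axis, for all 14911 tested genes and the neuronal, glial and vascular programmes. The neuronal and vascular curves cross 50% close to 0, as that of all genes does, and the glial curve crosses it at -0.35.

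Myelin and oligodendrocyte genes had the lowest median among the glial lists. Of 24 tested, 18 were lower (7.01% of all genes) and 0 higher (6.1%) at an unadjusted p under 0.05. In all 3 pairs 12 were lower (19.4% of all genes), and for 9 no Chaserr+/- library reached the lowest WT library (5.11% of all genes). The median was -0.71, and by pair -0.015, -0.69 and -1.32. The first pair was therefore close to 0 and the TruSeq pair the lowest. Summed over the list, TPM was 11729, 13016 and 17821 in WT and 11779.6, 8859.9 and 7346 in Chaserr+/- brains.

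Mbp, the basic protein that compacts the myelin sheath, had 4071, 4730.4 and 7321 CPM in WT and 4723, 3432 and 2939.8 CPM in Chaserr+/- brains. Its groups overlapped, since the first Chaserr+/- library exceeded the first WT library, and the log2 fold change was -0.52 ± 0.254 (SE, adjusted p = 0.424).

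Ugt8a, the enzyme that makes galactosylceramide for myelin, had 148, 130.2 and 164 CPM in WT and 105, 55.8 and 43.9 CPM in Chaserr+/- brains. Ermn, a cytoskeletal protein of late oligodendrocytes, had 63.2, 69.9 and 109 CPM in WT and 46.5, 16.4 and 33.3 CPM in Chaserr+/- brains. Neither overlapped between the genotypes, and the log2 fold changes were -1.21 ± 0.243 (SE, adjusted p = 0.315) for Ugt8a and -1.41 ± 0.289 (SE, adjusted p = 0.315) for Ermn. DESeq2 with the block called 5 genes of the list lower (0.481% of all genes). These were Ugt8a (adjusted p = 3.78e-05), Mag, an adhesion molecule of the inner myelin membrane (log2 fold change -0.82, adjusted p = 0.00311), the gap junction gene Gjb1 (-1.12, adjusted p = 0.00951), the myelin protein gene Mobp (-0.71, adjusted p = 0.0131) and the oligodendrocyte membrane gene Opalin (-0.87, adjusted p = 0.0329). The last 4 were named after their values were seen.

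Without replicate 3, 13 of 24 myelin genes were lower at an unadjusted p under 0.05 (6.68% of all genes) and the median was -0.41. Without replicate 1, 21 were lower (6.49% of all genes) with a median of -1.02. Without replicate 2, 7 were lower (3.62% of all genes) with a median of -0.66. Without the block 9 were lower (1.46% of all genes), again with a median of -0.66. With a correction for GC content and length in the same blocked fit, 16 were lower (6% of all genes) and the median was -0.65.

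Oligodendrocyte precursor genes lay nearer to the median of all genes than myelin genes did. Of 18 tested, 5 were lower and 1 higher at an unadjusted p under 0.05, with a median of -0.21. In all 3 pairs 9 were lower (19.4% of all genes) and 1 higher. With the GC and length correction 7 were lower (6% of all genes) and 1 higher, and the median was -0.31. Bcas1, a marker of early myelinating cells, had 224, 243 and 327 CPM in WT and 199, 154 and 122 CPM in Chaserr+/- brains. The groups did not overlap and the log2 fold change was -0.75 ± 0.217 (SE, adjusted p = 0.315). Olig1, a transcription factor of the lineage, had a log2 fold change of -0.42 ± 0.134 (SE). The single higher gene was Xylt1, which starts the sugar chains of proteoglycans, with a log2 fold change of 0.43 ± 0.129 (SE).

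Microglial genes were the other glial list with most members on 1 side. Of 22 tested, 12 were lower (7.01% of all genes) and 0 higher (6.1%) at an unadjusted p under 0.05. In all 3 pairs 18 were lower (19.4% of all genes). The median was -0.48, and -0.29, -0.91 and -0.25 by pair, so here the second pair was the lowest. Summed TPM was 1283, 1124 and 1546 in WT and 1024, 828 and 1269 in Chaserr+/- brains, lower in the Chaserr+/- library of each pair.

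Gpr34, a lysophosphatidylserine receptor of microglia, had 22.6, 14.5 and 18.8 CPM in WT and 11.2, 3.39 and 6.66 CPM in Chaserr+/- brains. No Chaserr+/- library reached a WT library, the second was the lowest, and the log2 fold change was -1.502 ± 0.218 (SE, adjusted p = 0.315).

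C1qc, a chain of the first complement component, had a log2 fold change of -0.56 ± 0.128 (SE) and was lower in all 3 pairs. Lgmn, a lysosomal protease and one of the most abundant of the list, had 156, 150.3 and 148 CPM in WT and 159, 162 and 119 CPM in Chaserr+/- brains. These values overlapped, and the log2 fold change was -0.057 ± 0.119 (SE, adjusted p = 0.862). DESeq2 with the block called 3 of the list lower (0.481% of all genes). These were Gpr34 (adjusted p = 4.44e-05), the fractalkine receptor Cx3cr1 (log2 fold change -0.76, adjusted p = 0.0323) and the purinergic receptor P2ry12 (-0.85, adjusted p = 0.0328). P2ry12 was at -0.60 and above an unadjusted p of 0.05 in edgeR with the GC and length correction. Cx3cr1 and P2ry12 were named after their values were seen. Without replicate 2, 8 microglial genes were lower (3.62% of all genes) and the median was -0.24. Without replicate 3, 15 were lower (6.68% of all genes) and it was -0.65. Without the block 2 of 22 were lower (1.46% of all genes) and it was -0.42.

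**Figure D3:**
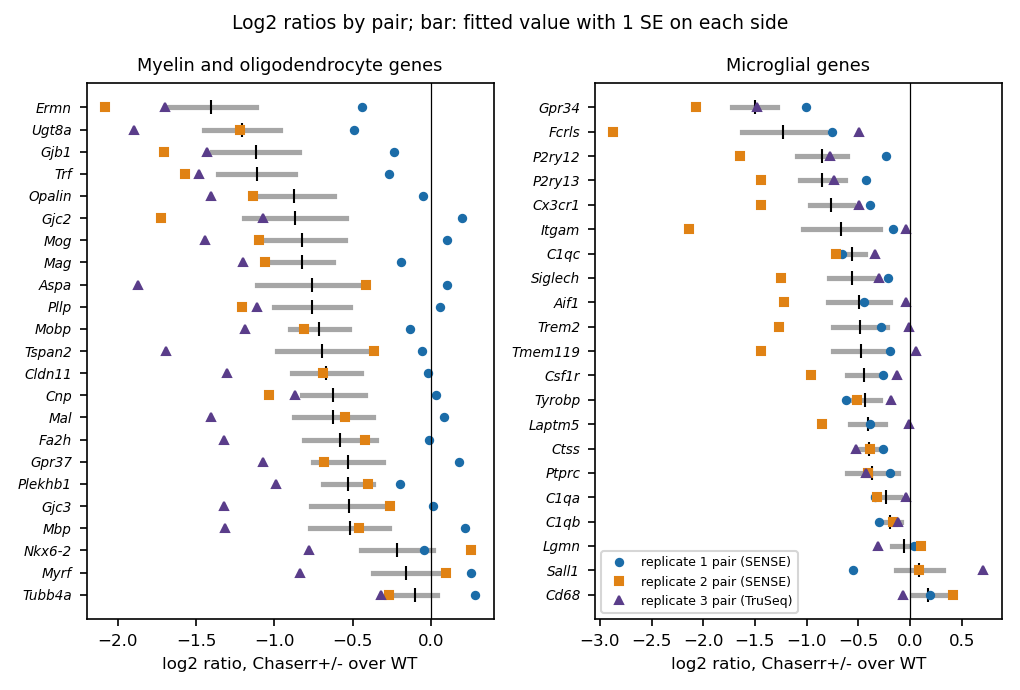
Log2 ratios of Chaserr+/- over WT (x axis) for the tested genes (y axis) of the myelin and oligodendrocyte list and of the microglial list, with 1 gene of each list not plotted. Symbols are the 3 pairs, and the tick and bar are the fitted value with 1 SE on each side. For myelin genes the first pair (circles) sits near 0 and the TruSeq pair (triangles) is the lowest for 18 of the 24 genes of the list, and for microglial genes the second pair (squares) is the lowest for 13 of the 22 of the list.

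Astrocyte genes had a median below 0. Of 22 tested, 5 were lower (7.01% of all genes) and 1 higher (6.1%) at an unadjusted p under 0.05, and 6 and 0 with the GC and length correction, with a median of -0.19 and pair medians of 0.038, -0.34 and -0.28. Without replicate 2, 0 were lower (3.62% of all genes) and 0 higher (3.25%), with a median of -0.13. Without replicate 3, 8 were lower (6.68% of all genes) and 3 higher (6.21%). Without the block 0 were lower (1.46% of all genes) and 0 higher (1.01%). Aqp4, the water channel of astrocyte endfeet, had 118, 114 and 235 CPM in WT and 108, 80.6 and 131 CPM in Chaserr+/- brains. Its groups overlapped and the log2 fold change was -0.50 ± 0.149 (SE, adjusted p = 0.315). Slc4a4, a sodium bicarbonate cotransporter, had a log2 fold change of -0.37 ± 0.125 (SE). Apoe, the main lipid carrier of the brain, was the higher gene, with 744, 718 and 1450.4 CPM in WT and 820.3, 896 and 1951 CPM in Chaserr+/- brains. It was higher in each pair while the groups overlapped across kits, with a log2 fold change of 0.30 ± 0.104 (SE, adjusted p = 0.330), or 0.20 with that correction, where its unadjusted p was above 0.05. Clu, the other most abundant member and a secreted chaperone, had -0.079 ± 0.100 (SE). Genes of reactive astrocytes gave 1 lower and 0 higher of 17, the small heat shock gene Hspb1 at -0.46 ± 0.180 (SE). The median of that list was 0.065, and -0.074 without replicate 2. The intermediate filament gene Vim had 0.27 ± 0.146 (SE), and the interferon-induced Gbp2 -0.64 ± 0.289 (SE).

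The medians of the vascular lists lay on both sides of 0. Endothelial genes gave 3 higher (6.1% of all genes) and 4 lower (7.01%) of 28 at an unadjusted p under 0.05, with a median of 0.010. Esam, an adhesion molecule of endothelial junctions, had 7.85, 10.1 and 8.26 CPM in WT and 11.5, 13.3 and 12.6 CPM in Chaserr+/- brains. Its groups did not overlap and its log2 fold change was 0.52 ± 0.154 (SE, adjusted p = 0.315). Vwf, the von Willebrand factor, had 0.50 ± 0.156 (SE), or 0.33 with the GC and length correction and then above an unadjusted p of 0.05, and was higher in each pair. The 2 most abundant endothelial genes were Bsg, a glycoprotein of the blood-brain barrier, at -0.18 ± 0.129 (SE), and the surface antigen gene Ly6c1 at -0.35 ± 0.208 (SE). Mural genes, of pericytes and smooth muscle, gave 1 lower (7.01% of all genes) and 0 higher (6.1%) of 17, a median of -0.039 and pair medians of -0.0076, -0.37 and -0.0068. That gene was Vtn, the adhesive protein vitronectin, with 67.3, 64.2 and 64.6 CPM in WT and 52.2, 45.3 and 61.4 CPM in Chaserr+/- brains and a log2 fold change of -0.31 ± 0.125 (SE, adjusted p = 0.361). The pericyte ATPase gene Atp13a5 had -0.42 ± 0.191 (SE).

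Genes of the vascular basement membrane had a median of 0.23, with 4 higher and 0 lower of 19 at an unadjusted p under 0.05. With the GC and length correction the median was 0.071 and 2 were higher (5.55% of all genes). The laminin chain gene Lamb1 had 19.1, 16.98 and 20.6 CPM in WT and 24.5, 23.2 and 32.3 CPM in Chaserr+/- brains, and Lama5 had 9.27, 6.78 and 9.52 CPM in WT and 12.02, 12.4 and 13.6 CPM in Chaserr+/- brains. Neither overlapped between genotypes, with log2 fold changes of 0.49 ± 0.131 (SE, adjusted p = 0.315) and 0.58 ± 0.169 (SE, adjusted p = 0.315). With the correction Lama5 had 0.31 and an unadjusted p above 0.05. The most abundant members, the matricellular genes Sparcl1 and Sparc, had 0.046 ± 0.100 (SE) and 0.051 ± 0.271 (SE).

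In the meningeal and fibroblast list, 2 of 20 genes were higher and 4 lower, with a median of -0.26 and pair medians of -0.079, -0.64 and -0.036. Both higher genes encode chains of collagen VI, a microfibrillar matrix protein. Col6a1 had 63.8, 47.4 and 36.7 CPM in WT and 96.5, 106 and 156 CPM in Chaserr+/- brains, and Col6a2 had 18.4, 14.5 and 16.2 CPM in WT and 30.3, 29.3 and 44.1 CPM in Chaserr+/- brains. All Chaserr+/- libraries were above all WT libraries for both genes, and the TruSeq Chaserr+/- library was the highest. Their log2 fold changes were 1.29 ± 0.258 (SE, adjusted p = 0.315) and 1.07 ± 0.166 (SE, adjusted p = 0.315), and DESeq2 with the block called both (adjusted p = 1.56e-05 and 0.000174). Ptgds, the prostaglandin D synthase of meninges and oligodendrocytes, had 2314, 1976 and 1507 CPM in WT and 1539, 2079.9 and 710.5 CPM in Chaserr+/- brains, with a log2 fold change of -0.53 ± 0.202 (SE, adjusted p = 0.347), and the growth factor gene Igf2 had -0.34 ± 0.147 (SE).

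Neuronal genes as a whole were centred on the median of all genes, but the lists joined in them lay on both sides of it. Their medians ran from -0.17 for GABA and glycine receptor genes to 0.46 for activity-regulated genes. At an unadjusted p under 0.05 the pan-neuronal, presynaptic, postsynaptic, glutamate and GABA neuron lists each had at most 3 members on 1 side. Pan-neuronal genes gave 1 higher and 1 lower of 18 and summed TPM of 9188, 8888 and 9553 in WT and 9521, 9037 and 8914 in Chaserr+/- brains. The higher row was that of the imprinted lncRNA Meg3, whose row joins it with the microRNA genes of its locus, with 2478, 2334 and 1273 CPM in WT and 3089.8, 3319.6 and 2046 CPM in Chaserr+/- brains. It was higher in each pair, the groups overlapped across kits, and the log2 fold change was 0.50 ± 0.108 (SE, adjusted p = 0.315). DESeq2 with the block gave it an adjusted p of 0.0127. Map2, a microtubule protein of dendrites, was the lower one at -0.24 ± 0.0968 (SE). The most abundant, the ubiquitin hydrolase gene Uchl1 and the SNARE gene Snap25, had 0.028 ± 0.109 (SE) and -0.19 ± 0.174 (SE).

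Presynaptic genes gave 1 higher and 1 lower of 21 and postsynaptic genes 3 higher and 0 lower of 20. With the GC and length correction these were 1 and 2 presynaptic and 0 and 0 postsynaptic genes, and the postsynaptic median went from 0.059 to 9.11e-05. The active zone scaffold Bsn had 0.48 ± 0.132 (SE), and 0.18 with the correction. Nlgn2, an adhesion molecule of inhibitory synapses, lay between 156 and 207 CPM in WT and between 231 and 259.6 CPM in Chaserr+/- brains. The groups did not overlap and the log2 fold change was 0.37 ± 0.113 (SE), and 0.17 with the correction. Neither gene was then under an unadjusted p of 0.05. The abundant postsynaptic genes Nrgn and Camk2a, a calmodulin-binding protein and a calmodulin-dependent kinase, had -0.12 ± 0.164 (SE) and 0.048 ± 0.126 (SE), and of the presynaptic ones the small GTPase gene Rab3a had 0.11 ± 0.0956 (SE) and the vesicle SNARE gene Vamp2 -0.097 ± 0.111 (SE).

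Among genes of glutamate transmission, 2 were higher and 1 lower of 20. Grin1, the shared subunit of NMDA receptors, had 427, 380.3 and 295 CPM in WT and 493, 439 and 412 CPM in Chaserr+/- brains and a log2 fold change of 0.30 ± 0.107 (SE, adjusted p = 0.341). Grik5, a kainate receptor subunit, had 0.38 ± 0.145 (SE), and Slc17a7, the vesicular glutamate transporter of the cortex, 0.23 ± 0.109 (SE). With the GC and length correction Grin1 had 0.14, Grik5 0.18 and Slc17a7 0.12, all above an unadjusted p of 0.05, and the list gave 1 higher and 0 lower. Genes of GABA neurons gave 2 higher and 0 lower of 20. They were Lhx6, a transcription factor of interneurons, with 21.4, 21.2 and 14.1 CPM in WT and 25.4, 32.5 and 20.97 CPM in Chaserr+/- brains, and the serotonin-gated channel gene Htr3a, with 9.42, 6.09 and 6.16 CPM in WT and 10.8, 12.3 and 10.8 CPM in Chaserr+/- brains. Both were higher in each pair, and the groups overlapped for Lhx6 but not for Htr3a. Their log2 fold changes were 0.48 ± 0.137 (SE, adjusted p = 0.315) and 0.68 ± 0.204 (SE, adjusted p = 0.315). The interneuron peptide genes Sst and Cck had 0.19 ± 0.112 (SE) and -0.023 ± 0.135 (SE).

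Receptor genes for GABA and glycine gave 0 higher and 4 lower of 15, and a median of -0.17. The GABA-A receptor subunit gene Gabrb2 had 263, 268 and 236 CPM in WT and 228, 220.1 and 152 CPM in Chaserr+/- brains. Its groups did not overlap, with a log2 fold change of -0.37 ± 0.119 (SE, adjusted p = 0.315). Gabrb1 had -0.41 ± 0.132 (SE). Gabbr1, a subunit of the metabotropic GABA-B receptor, had 0.039 ± 0.0951 (SE). With the GC and length correction 3 were lower and the median was -0.056. Of 27 ion channel genes 2 were higher and 1 lower. Kcnt1, a sodium-activated potassium channel, had 139, 152 and 87.7 CPM in WT and 174, 208 and 142 CPM in Chaserr+/- brains with a log2 fold change of 0.49 ± 0.113 (SE, adjusted p = 0.315), and DESeq2 with the block called it (adjusted p = 0.0416). The calcium channel gene Cacna1b had 0.29 ± 0.107 (SE) (0.16 with the correction, which gave 1 higher and 3 lower of the list), and the sodium channel subunit gene Scn2b -0.36 ± 0.170 (SE).

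Genes of monoamine and acetylcholine neurons gave 1 higher and 7 lower of 15, with a median of -0.16 (-0.40 with the GC and length correction) and pair medians of -0.22, -0.15 and -0.96. Tph2, which makes serotonin in raphe neurons, had 10.9, 12.03 and 1.67 CPM in WT and 3.42, 4.37 and 0.811 CPM in Chaserr+/- brains, and Slc6a4, the serotonin transporter of the same neurons, had 10.5, 8.98 and 0.520 CPM in WT and 1.92, 3.25 and 0.212 CPM in Chaserr+/- brains. In both genes each Chaserr+/- library was below the WT library of its pair, while both TruSeq libraries were below all SENSE libraries, so the groups overlapped. The log2 fold changes were -1.41 ± 0.228 (SE, adjusted p = 0.315) and -1.82 ± 0.311 (SE, adjusted p = 0.315). Maob, a monoamine oxidase also made by astrocytes, had 17.4, 20.9 and 37.95 CPM in WT and 10.3, 9.81 and 22.7 CPM in Chaserr+/- brains, a log2 fold change of -0.86 ± 0.141 (SE, adjusted p = 0.315) and an adjusted p of 0.00993 by DESeq2 with the block. Th, the first enzyme of dopamine synthesis, had 50.9, 22.8 and 12.01 CPM in WT and 21.8, 19.1 and 34.7 CPM in Chaserr+/- brains, with no common direction over the pairs and a log2 fold change of 0.019 ± 0.462 (SE, adjusted p = 0.989), or -0.75 without replicate 3. Among 23 neuropeptide genes 4 were lower and 0 higher, with a median of -0.098. The hypothalamic hormone gene Oxt had 21.5, 37.99 and 11.4 CPM in WT and 15.2, 2.89 and 2.68 CPM in Chaserr+/- brains, and Avp, of neighbouring neurons, had 35.3, 48.4 and 14.4 CPM in WT and 21.8, 27.02 and 13.9 CPM in Chaserr+/- brains. Their log2 fold changes were -2.01 ± 0.526 (SE, adjusted p = 0.315) and -0.53 ± 0.176 (SE, adjusted p = 0.321), and both overlapped between genotypes.

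Activity-regulated genes had the highest median of the lists, 0.46, with 4 higher and 0 lower of 22 at an unadjusted p under 0.05. The pair medians were -0.18, 0.72 and 0.76, so the first pair went against the other 2. Egr4, an immediate early transcription factor, had 25.2, 18.2 and 7.498 CPM in WT and 27.7, 37.7 and 23.3 CPM in Chaserr+/- brains. It overlapped between genotypes, with a log2 fold change of 0.95 ± 0.264 (SE, adjusted p = 0.315) and an adjusted p of 0.0289 by DESeq2 with the block. Nr4a3, an orphan nuclear receptor of the same class of early genes, had 0.57 ± 0.139 (SE). The most abundant members were Egr1 and Egr3, with 0.44 ± 0.194 (SE) and 0.39 ± 0.132 (SE), the second at 0.25 and above an unadjusted p of 0.05 with the GC and length correction. Without replicate 1, 15 of the 22 were higher (5.12% of all genes) and the median was 0.77. Without replicate 3, 5 were higher (6.21% of all genes), 1 was lower (6.68%) and the median was 0.19. Genes of neurogenesis and the cell cycle gave 1 higher and 0 lower of 19. It was Hes5, a Notch target of neural stem cells and astrocytes, at 0.57 ± 0.158 (SE). Prox1, a transcription factor of dentate granule cells, had -0.56 ± 0.256 (SE), and the abundant Stmn1 and Pcna, for a tubulin regulator and the replication clamp, -0.18 ± 0.113 (SE) and -0.11 ± 0.115 (SE).

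**Figure D4:**
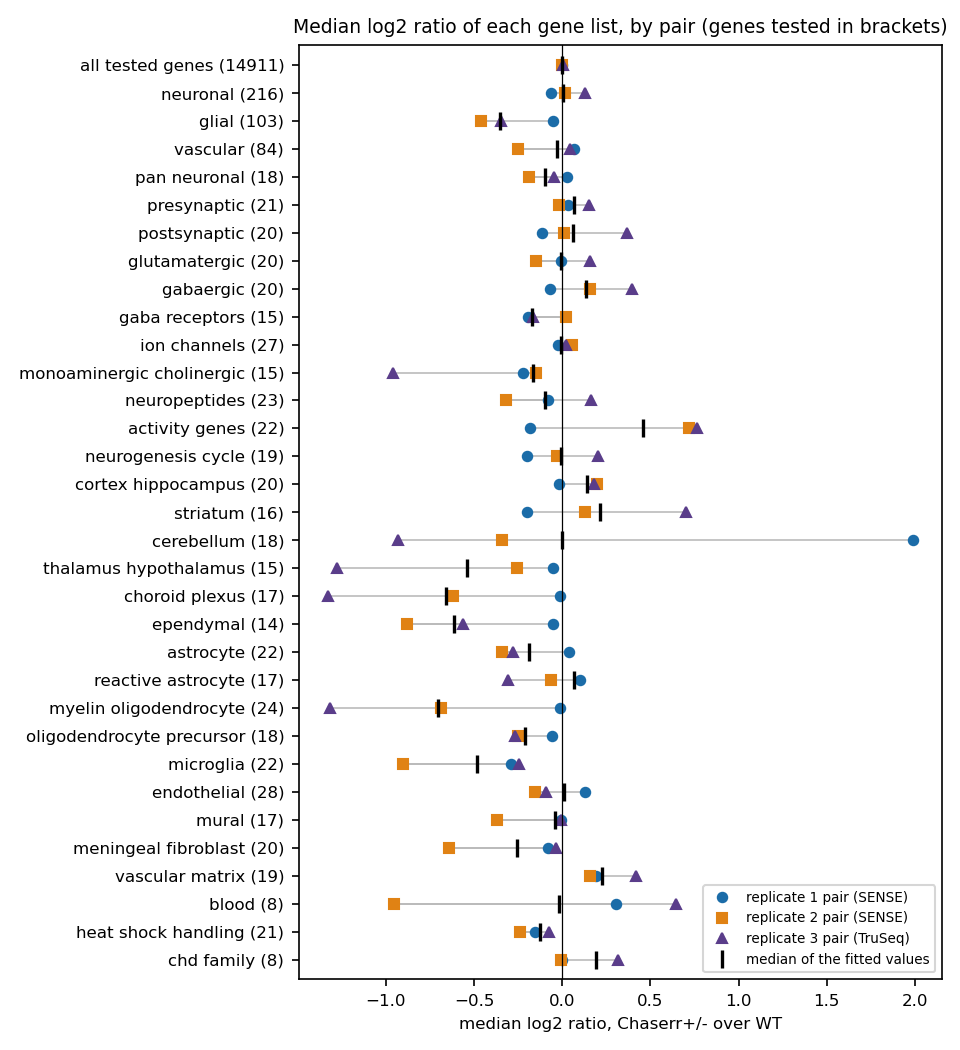
Median log2 ratio of Chaserr+/- over WT (x axis) of all tested genes, the 3 programmes and 29 gene lists (y axis, genes tested in brackets), with symbols for the 3 pairs and a tick for the median of the fitted values. The pituitary list is not plotted. Of the lists, 18 lie within 0.5 of 0 in every pair, the cerebellum list runs from -0.93 to 1.99 between pairs, and the myelin, choroid plexus and thalamus lists have their lowest median in the TruSeq pair.

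Lists that mark other parts of the brain and its linings also differed between pairs. Cerebellar genes had a median of 0.0012 with 0 of 18 at an unadjusted p under 0.05 in either direction, and pair medians of 1.99, -0.34 and -0.93. Without replicates 1, 2 and 3 in turn the median was -0.70, 0.48 and 0.66, and with the kit as covariate it was -0.15. Pcp2, a Purkinje cell gene, had 0.150, 80.9 and 11.5 CPM in WT and 40.7, 38.2 and 0.0353 CPM in Chaserr+/- brains. It was near 0 in WT 1 and Chaserr+/- 3, 1 library of each genotype, and highest in WT 2. The summed TPM of the list was 299.5, 1536 and 534 in WT and 1023, 999.7 and 330.03 in Chaserr+/- brains. Calb1, of Purkinje cells and many forebrain neurons, had -0.0016 ± 0.207 (SE), and the eye and cerebellar factor gene Pax6 0.41 ± 0.181 (SE). The granule cell genes Zic1 and Zic4, the first of which the thalamus list also holds, had 0.066 ± 0.347 (SE) and -0.43 ± 0.283 (SE).

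Genes of the thalamus and hypothalamus gave 0 higher and 6 lower of 15, with pair medians of -0.051, -0.26 and -1.28 and summed TPM of 366, 425 and 325 in WT and 387, 365 and 119.97 in Chaserr+/- brains. The TruSeq Chaserr+/- library was the lowest of the 6. Without replicate 3, 1 gene of the list was higher (6.21% of all genes), 2 were lower (6.68%) and the median was -0.23. Prkcd, a protein kinase C gene of thalamic neurons, had 71.9, 76.1 and 78.6 CPM in WT and 67.7, 83.3 and 13.7 CPM in Chaserr+/- brains, with the TruSeq Chaserr+/- library alone far below the others. Its log2 fold change was -0.77 ± 0.479 (SE, adjusted p = 0.512), and 0.022 without replicate 3. Rgs16, a regulator of G protein signalling, had 18.7, 19.1 and 21.1 CPM in WT and 14.7, 11.99 and 9.73 CPM in Chaserr+/- brains. Its groups did not overlap, with a log2 fold change of -0.72 ± 0.179 (SE, adjusted p = 0.315), and the axon guidance gene Ntng1 had -0.37 ± 0.130 (SE) (-0.24 with the GC and length correction).

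Choroid plexus genes gave 0 higher and 8 lower of 17 at an unadjusted p under 0.05, with pair medians of -0.011, -0.62 and -1.33. Without replicate 3, 0 were higher, 3 were lower (6.68% of all genes) and the median was -0.33. Ttr, the thyroxine carrier of choroid epithelium, had 979.9, 1031 and 1369 CPM in WT and 1061, 702 and 648 CPM in Chaserr+/- brains. The groups overlapped and the log2 fold change was -0.51 ± 0.207 (SE, adjusted p = 0.369), and -0.39 with the GC and length correction, which gave 6 lower of the list. Kcnj13, a potassium channel of that epithelium, had 13.4, 11.6 and 13.3 CPM in WT and 7.61, 3.67 and 4.76 CPM in Chaserr+/- brains, and Kl, the co-receptor Klotho, had 26.5, 25.4 and 37.98 CPM in WT and 18.9, 14.2 and 9.13 CPM in Chaserr+/- brains. For both genes every Chaserr+/- library lay below every WT library. Their log2 fold changes were -1.31 ± 0.212 (SE, adjusted p = 0.315) and -1.14 ± 0.287 (SE, adjusted p = 0.315), and DESeq2 with the block called both (adjusted p = 0.00284 and 0.00880). Ecrg4, a secreted peptide precursor, had -0.66 ± 0.285 (SE).

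Ependymal genes, of the ciliated lining of the ventricles, gave 0 higher and 6 lower of 14 and pair medians of -0.053, -0.88 and -0.56. Without replicate 2, 0 of 15 were lower (3.62% of all genes) and the median was -0.39. Without replicate 3, 2 of 14 were lower (6.68% of all genes) and it was -0.60. Rarres2, a chemoattractant precursor and with the dynein gene Dynlrb2 the most abundant, had 11.4, 17.1 and 13.4 CPM in WT and 11.5, 5.36 and 8.11 CPM in Chaserr+/- brains and a log2 fold change of -0.78 ± 0.294 (SE, adjusted p = 0.347), and Dynlrb2 had -0.55 ± 0.309 (SE). Mia and Tmem212, the members of lowest p, had -0.91 ± 0.307 (SE) and -0.76 ± 0.279 (SE). Pituitary genes, of the gland below the brain, passed the filter for 3 of 12. Gh, growth hormone, had 2.62, 2.51 and 0.985 CPM in WT and 0, 0.564 and 0 CPM in Chaserr+/- brains, and its log2 fold change of -3.77 ± 0.815 (SE, adjusted p = 0.315) rests on 33 to 36 counts in the WT libraries and 0, 8 and 0 counts in the Chaserr+/- libraries. Pomc, a hormone precursor also made in the hypothalamus, had -0.74 ± 0.309 (SE).

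Lists of forebrain regions had medians above 0, with negative values in the first pair. Striatal genes gave 1 higher (6.1% of all genes) and 0 lower of 16, a median of 0.22 and pair medians of -0.20, 0.13 and 0.70. Without the TruSeq pair 0 were higher (6.21% of all genes), 2 were lower (6.68%) and the median was -0.0054, so the value above 0 rested on that pair. That gene was Ppp1r1b (DARPP-32), the phosphatase regulator of medium spiny neurons, with 276, 300.1 and 240.3 CPM in WT and 311, 355 and 446 CPM in Chaserr+/- brains. Its groups did not overlap, the TruSeq Chaserr+/- library was the highest, and the log2 fold change was 0.44 ± 0.155 (SE, adjusted p = 0.334). Rgs9, a striatal regulator of G protein signalling, had 0.48 ± 0.218 (SE) and the enkephalin gene Penk 0.19 ± 0.167 (SE). Cortical and hippocampal genes gave 4 higher and 1 lower of 20, with a median of 0.14 and pair medians of -0.016, 0.20 and 0.18. Without replicate 3 they gave 3 higher (6.21% of all genes), 1 lower (6.68%) and a median of 0.11. Crym, a thyroid hormone binding protein, had 34.1, 38.7 and 94.1 CPM in WT and 46.5, 54.96 and 165 CPM in Chaserr+/- brains, a log2 fold change of 0.59 ± 0.121 (SE, adjusted p = 0.315) and an adjusted p of 0.0177 by DESeq2 with the block. Foxp2, a transcription factor of deep cortical layers, striatum and thalamus, was the lower one at -0.50 ± 0.127 (SE), and the membrane protein gene Lamp5 had -0.13 ± 0.118 (SE).

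In the TruSeq pair the myelin, choroid plexus and thalamus medians were -1.32, -1.33 and -1.28 and the striatal median 0.70, in the second pair they were -0.69, -0.62, -0.26 and 0.13, and in the first pair -0.015, -0.011, -0.051 and -0.20. Myelin genes thus kept the order of the choroid plexus and thalamus genes from pair to pair, and the part of tissue composition in the glial values was not tested. Microglial genes had their lowest median in the second pair (-0.29, -0.91 and -0.25 in pairs 1, 2 and 3), and so had, among others, the astrocyte, ependymal, endothelial, mural and meningeal lists. Blood genes, for blood left in the vessels, gave 0 of 8 in either direction and pair medians of 0.30, -0.95 and 0.64, and the alpha and beta globin rows had 122, 267 and 102 CPM in WT and 149.8, 178 and 217 CPM in Chaserr+/- brains and 300.02, 787 and 227 CPM in WT and 322, 212 and 424 CPM in Chaserr+/- brains. Bpgm, an enzyme of red cells, had -0.16 ± 0.120 (SE).

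**Figure D5:**
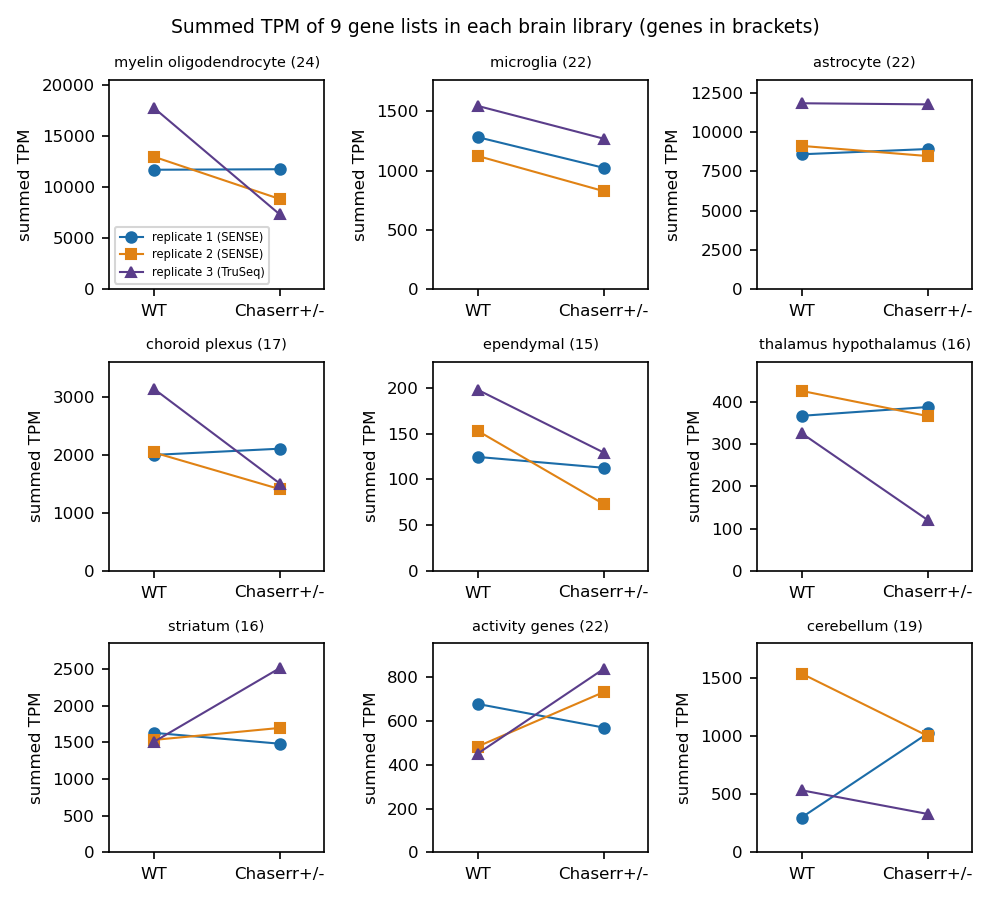
Summed TPM (y axis, from 0) of 9 gene lists in each of the 6 brain libraries, with lines joining the WT and Chaserr+/- library of a replicate number. Microglial and ependymal sums are lower in the Chaserr+/- library of each pair, the myelin sum is level in the first pair (11729 and 11780) and lower in the other pairs, and the cerebellar sum goes up in the first pair and down in the others.

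Stress and handling genes gave 2 higher and 7 lower of 21 at an unadjusted p under 0.05 and a median of -0.12. Cdkn1a, the cell cycle inhibitor p21, had 34.2, 36.8 and 12.8 CPM in WT and 49.6, 112 and 26.1 CPM in Chaserr+/- brains. It was higher in each pair, the second Chaserr+/- library was the highest, and the log2 fold change was 1.06 ± 0.199 (SE, adjusted p = 0.315) with an adjusted p of 0.000174 by DESeq2 with the block. Hspe1, a mitochondrial chaperonin, had 46.3, 52.2 and 79.7 CPM in WT and 29.9, 36.4 and 55.98 CPM in Chaserr+/- brains, lower in each pair with a log2 fold change of -0.55 ± 0.109 (SE, adjusted p = 0.315). DESeq2 called 1 gene of the list lower, the lens and oligodendrocyte chaperone Cryab (log2 fold change -0.63, adjusted p = 0.0334), which was named after its value was seen. The most abundant, the metal-binding Mt1 and the constitutive chaperone Hspa8, had 0.20 ± 0.119 (SE) and -0.084 ± 0.0929 (SE). Of the 8 other Chd genes 1 was higher and 0 lower, with a median of 0.19, and 0 and 0 with a median of 0.030 with the GC and length correction. Chd4, a remodeller of the NuRD complex, had 169.9, 172 and 174 CPM in WT and 187, 199 and 229.6 CPM in Chaserr+/- brains without overlap and a log2 fold change of 0.25 ± 0.105 (SE, adjusted p = 0.373), or 0.17 with the correction. Chd8 had 0.21 ± 0.118 (SE) and Chd3 0.17 ± 0.160 (SE).

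Among genes with an unadjusted p under 0.05, the same direction in all pairs and a mean TPM of at least 1 in the higher group, 868 were higher and 995 lower, and the 10 with the largest fold changes each way are described here. Most had few counts. A row of Zfp966 transcripts, of a zinc finger family with near-identical copies, had 0, 0.305 and 0 CPM in WT and 10.3, 9.38 and 5.71 CPM in Chaserr+/- brains, and other rows of the gene were divided among the libraries in other ways, so its value is uncertain. Ovgp1, an oviduct glycoprotein, had 6.43, 5.48 and 2.74 CPM in WT and 15.4, 44.4 and 7.83 CPM in Chaserr+/- brains. Its groups did not overlap, with a log2 fold change of 1.93 ± 0.332 (SE, adjusted p = 0.315) and an adjusted p of 8.13e-06 by DESeq2 with the block. Col7a1, whose row joins it with Mir711, had 1.12, 1.45 and 2.08 CPM in WT and 2.92, 3.46 and 11.5 CPM in Chaserr+/- brains and the innate immune glycoprotein Lrg1 1.196, 1.45 and 0.465 CPM in WT and 2.21, 5.36 and 1.904 CPM in Chaserr+/- brains, with log2 fold changes of 1.799 ± 0.321 (SE, adjusted p = 0.315) and 1.62 ± 0.337 (SE, adjusted p = 0.315). The other 6, the sodium channel gene Scn10a, the chloride channel gene Best1, Trim72, the urokinase receptor gene Plaur, the serine protease gene Hpn and the Wnt ligand gene Wnt10b, had log2 fold changes from 1.52 to 2.596 at no more than 5.93 CPM in a library.

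Of the 10 lower genes, Oxt and Gh stand above. Serpinb1a, an inhibitor of neutrophil proteases made by oligodendrocytes, had 5.23, 6.78 and 20.4 CPM in WT and 2.13, 1.06 and 7.97 CPM in Chaserr+/- brains. It was lower in each pair, with a log2 fold change of -1.68 ± 0.287 (SE, adjusted p = 0.315) and an adjusted p of 0.000745 by DESeq2 with the block. Klk6, a protease of oligodendrocytes, had 11.3, 12.9 and 13.8 CPM in WT and 10.9, 2.33 and 1.13 CPM in Chaserr+/- brains. The groups did not overlap, although the first pair was almost level, and the log2 fold change was -1.96 ± 0.620 (SE, adjusted p = 0.315). Foxb1, a transcription factor of the hypothalamus and thalamus, had 1.87, 1.903 and 1.75 CPM in WT and 1.21, 0.635 and 0.0705 CPM in Chaserr+/- brains and -1.91 ± 0.639 (SE, adjusted p = 0.323). The histone gene H2bc6 had -2.01 ± 0.503 (SE) and A330076C08Rik -1.84 ± 0.696 (SE). Slc6a4 is described with the serotonin genes. The row that joins Gm14440 and Gm14288 and a row of Gm3411, both of families with near-identical copies, had -2.42 ± 0.845 (SE) and -2.09 ± 0.714 (SE) and are uncertain for that reason.

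The kits were compared in an edgeR fit with a genotype by kit term, added after the data were seen, whose 2 residual degrees of freedom come from the SENSE libraries alone, since TruSeq has 1 pair. Of 14911 genes 3 were called for a difference of the genotype effect between kits (0.0201%), and 1427 had an unadjusted p under 0.05 (9.57%). All 3 are genes of the hypothalamus or thalamus. They were Prkcd, given above (adjusted p = 0.0316), and Pmch and Shox2 (adjusted p = 0.00402 for both), which were named after their values were seen. Pmch, the precursor of melanin-concentrating hormone, had 17.4, 23.4 and 64.9 CPM in WT and 15.1, 10.7 and 0.106 CPM in Chaserr+/- brains, and Shox2, a homeobox factor of the thalamus, had 14.7, 18.04 and 14.5 CPM in WT and 15.01, 16.8 and 0.0705 CPM in Chaserr+/- brains. In each of the 3 the TruSeq Chaserr+/- library alone stood far below the others. For Chd2 the TruSeq minus SENSE difference of the log2 fold changes was 0.35 (adjusted p = 0.642) and for Chaserr -0.66 (adjusted p = 0.669). Levels themselves differed between the kits for 7199 genes (48.3%) at an adjusted p under 0.05 in the fit with the kit as covariate, and the kit and the brains of replicate 3 cannot be told apart.

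The genotype effect was then compared with that in whole E13.5 embryos of the same 2 genotypes (3 TruSeq libraries each), in 1 edgeR fit with an interaction term and replicate blocks within each tissue. The sets share no library. Of 16843 genes tested, 1 was called for a difference (0.00594%), a row of Gm14440 transcripts, and 2123 had an unadjusted p under 0.05. For Chd2 the brain minus embryo difference of the log2 fold changes was 0.18 ± 0.138 (SE, adjusted p = 0.600), with values of 0.95 in brain and 0.78 in embryos when each set was fitted alone. For Chaserr it was -0.34 ± 0.303 (SE, adjusted p = 0.660), with -0.95 and -0.60.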

How the data were processed

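Poly(A) RNA-seq libraries of 3 WT and 3 Chaserr+/- adult brains were used, with E13.5 embryos of both genotypes (3 each) for 1 comparison. The authors mapped paired-end reads and estimated expression with RSEM (version not given in the sources used here) on a RefSeq annotation whose last Chaserr exon they edited. The submitters' processing notes name mm9 and mm10. The deposited values are expected counts and TPM per gene and library. Where RSEM shares reads among near-identical copies, a copy's value is uncertain.

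Expected counts were rounded and tested with the quasi-likelihood test of edgeR 4.0.16 (R 4.3.3; filterByExpr, TMM factors, replicate number as a block), with Benjamini-Hochberg adjustment over 14911 genes. Calls needed an adjusted p under 0.05. CPM are TMM-scaled, and pair ratios used a prior count of 2. DESeq2 1.42.0, other factors and filters, the kit as covariate, no block and leaving out pairs or libraries were alternatives. The fits were tested on simulated data. A GC and length correction and a genotype by kit term were added after the data were seen. So was a run meant to leave out Rn45s, whose values equalled those of the main fit. The fitted log2 fold changes had a Spearman correlation of 0.362 with GC content across 14062 genes, and 0.297, 0.0142 and 0.485 in pairs 1, 2 and 3.

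The block follows the replicate numbers of the titles. Deviations from the group means correlated within all 3 pairs (0.437, 0.529 and 0.747), but also between Chaserr+/- 1 and WT 2 (0.589), and within the SENSE kit the difference between replicates 1 and 2 correlated by only 0.042 between genotypes. The biological coefficient of variation was 0.164 with the block, 0.158 with the kit and 0.334 with neither.

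Of 559 genes in 30 lists 536 were tested. Named genes are Chd2, Chaserr, the 10 genes each way of largest fold change, and per list the 2 most abundant by TPM and the 2 of lowest p. Some genes that this rule selects are not reported here. The lists and genes were chosen with earlier results of these data known.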

Additional observations from a re-analysis of the deposited data

Results flagged for a closer look

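One row differed in its genotype effect between adult brain and E13.5 embryos. The row of Gm14440 transcripts, of a zinc finger family with near-identical members, had a brain minus embryo difference of -11.4 on the log2 scale, with an adjusted p of 0.0382 in the edgeR fit with the interaction term. Its counts in brain were 2.11, 0.22 and 1197 in WT and 0, 0 and 1.17 in Chaserr+/- libraries, so 1 library, WT 3, held nearly all of them. In E13.5 embryos they were 0, 85.7 and 2.40 in WT and 0.42, 398 and 3.96 in Chaserr+/- libraries, with replicate 2 of both genotypes above the others. Other rows of the same family were divided among the libraries in other ways, and the value is uncertain for that reason. Without replicate 3 the gene was no longer called.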

How the results depend on the processing

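The comparison has 3 libraries per genotype in 2 kits, and the TruSeq pair is also the deepest and holds the library with 9 counts of Xist and 0 of the Y-linked genes. The SENSE pairs alone are the fit without replicate 3. The pairing rests on the numbers in the titles, and the blocked fit is set against the unblocked one for that reason.

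edgeR called 0 genes with the replicate block, without it, with the kit as covariate, with RLE factors, with at least 10 counts in every library and after the correction for GC and length. A run meant to leave out the Rn45s row returned the values of the main fit unchanged, so the effect of that row was not tested. DESeq2 with the replicate block called 99 genes, DESeq2 without the block 1 gene, and edgeR without a filter on low counts 10 genes. Leaving out a pair or a single library gave 0 to 48 called genes and 161 to 1926 genes at an unadjusted p under 0.05. Without the replicate block that number was 368 with edgeR and 492 with DESeq2, and the cause was not tested. Chd2 passed in DESeq2 with the replicate block (log2 fold change 0.96) and ran from 0.67 to 1.14 when a pair or a library was left out, and its adjusted p ran from 1.37e-05 to 1.00 over the alternatives. The neuronal median ran from -0.030 to 0.057 and the vascular median from -0.13 to 0.027 when a pair was left out. The 1 gene called for the difference between brain and E13.5 embryos was lost (0 genes) without the replicate block, with at least 10 counts in every library, and without each of replicates 1, 2 and 3.

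Some named genes turned sign under other settings, and the cause was not tested. Th was at -0.17 without the replicate block in edgeR and in DESeq2 and at -0.062 with the kit as covariate, where Zic1 was at -0.013. Calb1 was at 0.0082 in DESeq2 with the block, at 0.0072 with RLE factors, and at 0.24 with the GC and length correction. With that correction Camk2a was at -0.0097, Gabbr1 at -0.019, Pcna at 0.011 and Uchl1 at -0.0063. Leaving out a pair, or 1 library without the block (which leaves the kits unequal between genotypes), gave ranges that crossed 0 for some of them. The log2 fold change ran for Apoe from -0.18 to 0.74, Bpgm from -1.12 to 0.80, Calb1 from -0.33 to 0.18, Camk2a from -0.11 to 0.19, Cck from -0.46 to 0.22, Chd3 from -0.18 to 0.46, Clu from -0.21 to 0.071, Crym from -0.14 to 1.29 and Egr3 from -0.061 to 0.74. It ran for Gabbr1 from -0.056 to 0.14, the alpha globin row from -0.15 to 0.70, the beta globin row from -0.90 to 0.51, Hes5 from -0.023 to 1.15, Hspb1 from -0.83 to 0.14, Lamp5 from -0.28 to 0.026, Lgmn from -0.14 to 0.086, Ly6c1 from -0.98 to 0.11 and Mt1 from -0.24 to 0.81. Further, it ran for Nrgn from -0.43 to 0.058, Pcp2 from -2.56 to 2.12, Penk from -0.0050 to 0.43, Prkcd from -1.29 to 0.022, Prox1 from -0.81 to 0.078, Shox2 from -2.38 to 0.014, Snap25 from -0.40 to 0.070, Sparc from -0.23 to 0.65 and Sparcl1 from -0.037 to 0.19. Last, it ran for Sst from -0.14 to 0.36, Th from -0.75 to 0.66, Uchl1 from -0.12 to 0.22, Vamp2 from -0.34 to 0.065, Zic1 from -0.48 to 1.09 and Zic4 from -0.86 to 0.049.

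Of 127 named genes other than Chd2 and Chaserr, 67 kept their direction and their side of the threshold in every setting run, 27 passed the threshold in at least 1 and 34 turned sign in at least 1. List medians were taken in fewer settings, without the DESeq2 fits and the fits that leave out a single library. Of 30 gene lists, 11 had a median that turned sign in at least 1 of these settings, in 22 of 300 medians, and 6 of the 300 medians moved by more than the spread between pairs. The 300 include those of the run meant to leave out Rn45s, which repeated the main values. With the GC and length correction 12 of 76 named genes lost an unadjusted p under 0.05.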
